A study of Homo sapiens with 2 samples.

Results

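The genes described here are 9 transcription factors that set or divide cell fates in the intestinal epithelium: CDX1, CDX2, HNF4A, KLF4, KLF5, ATOH1, HES1, SOX9 and GATA6. They were chosen by name from 20046 annotated protein-coding genes. A site of TCF7L1 binding was counted for a gene when its summit, the base with most stacked reads, lay inside the gene or within 250 kb of any of its transcription start sites (TSSs), and this is called in reach below. Of the 3762 summits in the TCF7L1 list, 10 were in reach of 5 of the 9 genes, and of the 224 summits in the TCF7L1-MUT list, 0 were. Of all protein-coding genes, 41.3% had a TCF7L1 summit in reach and 1.69% a TCF7L1-MUT summit.

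The data come from chromatin immunoprecipitation followed by sequencing (ChIP-seq) in HCT116 cells, an established human colon adenocarcinoma line. Both samples carried an shRNA against the endogenous TCF7L1 transcript (shTCF7L1-2) and a pCW57.1 plasmid, induced with 1 µg/ml doxycycline, and chromatin was collected with an antibody to the FLAG tag of the induced protein. In the TCF7L1 sample that protein was TCF7L1, and in the TCF7L1-MUT sample it was TCF7L1 with point mutations in its DNA-binding domain. The sites are therefore those of an induced, tagged protein in cells with lowered endogenous TCF7L1, and the lists hold no measure of expression against which the cell type could be checked. Each group had 1 sample, so no value has a replicate check, no p-value is given, and differences between the lists describe 2 libraries.

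TCF7L1 is a member of the TCF/LEF family, the DNA-binding partners of β-catenin in Wnt signaling, and it mainly acts as a repressor. In the intestine, Wnt signaling maintains the crypt, where stem cells divide, while cells that leave the crypt become absorptive or secretory. CDX1, CDX2, HNF4A and GATA6 specify and maintain intestinal identity, HES1 and ATOH1 stand on opposite sides of the Notch-controlled choice between absorptive and secretory fate, KLF4 and KLF5 are associated with differentiated and dividing cells respectively, and SOX9 is active at the crypt base.

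The only 2 summits inside a member gene were in introns of CDX2 and GATA6, and their sequences are shown first because each holds the sequence that TCF factors bind, CTTTG followed by 2 letters that are A or T. The windows take 100 bp either side of the summit in GRCh38/hg38, chr13:27966039-27966239 for CDX2 and chr18:22193546-22193746 for GATA6, written 5′ to 3′ on the plus strand. Capitals mark matches to any of 7 patterns that were searched on both strands.

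CDX2 intron: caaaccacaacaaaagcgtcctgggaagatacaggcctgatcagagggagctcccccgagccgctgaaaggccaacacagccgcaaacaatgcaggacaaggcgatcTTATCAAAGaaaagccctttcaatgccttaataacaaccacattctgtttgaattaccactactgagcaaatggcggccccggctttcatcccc

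GATA6 intron: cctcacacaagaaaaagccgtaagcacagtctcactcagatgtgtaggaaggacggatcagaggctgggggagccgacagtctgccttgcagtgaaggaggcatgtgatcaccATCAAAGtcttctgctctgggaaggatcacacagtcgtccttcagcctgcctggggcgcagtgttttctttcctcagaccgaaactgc

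In both windows the TCF match reads CTTTGAT on the minus strand, and its centre lies 12 bp from the summit at CDX2 and 16 bp from it at GATA6. CDX2 is transcribed from the minus strand and GATA6 from the plus strand, so the match has the direction of transcription at CDX2 and the opposite one at GATA6. At CDX2 the capitals also cover a GATA match, TGATAA, that shares bases with the TCF match. Among the 3573 TCF7L1 regions on chromosomes 1 to 22, X and Y, a TCF match within 20 bp of the summit occurred in 7.50%. That bound was not among the planned rules and encloses both distances, and the windows are shown because they hold a match. The share is therefore no test of them. Over full windows the match was present in 2 of 10 member windows, against 26.8% of all. The other 8 member windows had no TCF match within 100 bp of their summit.

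A TCF7L1 summit was in reach of 5 of 9 genes (55.6%), against 41.3% of all protein-coding genes under the same rule. GATA6 had 4 summits, HES1 had 3, and CDX2, HNF4A and KLF4 had 1 each, while CDX1, KLF5, ATOH1 and SOX9 had 0. The median was 1 summit per gene for the 9 genes and 0 for all protein-coding genes, with means of 1.11 and 0.706. Of the 10 summits, 5 were upstream and 5 downstream of the nearest TSS of the member, and sides were not counted for other genes. With a reach of 100 kb, 4 of the 10 summits remained, at 3 of the 9 genes, against 23.1% of protein-coding genes with a summit. A promoter summit, within 2.5 kb of a TSS, was present at CDX2 alone, 1 of 9 genes (11.1%), against 4.86% of protein-coding genes. Summits inside the gene itself were found for 2 of 9, CDX2 and GATA6, against 7.23% of protein-coding genes. With 9 genes, each of these shares changes by 11.1 percentage points for 1 gene.

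**Figure D1:**
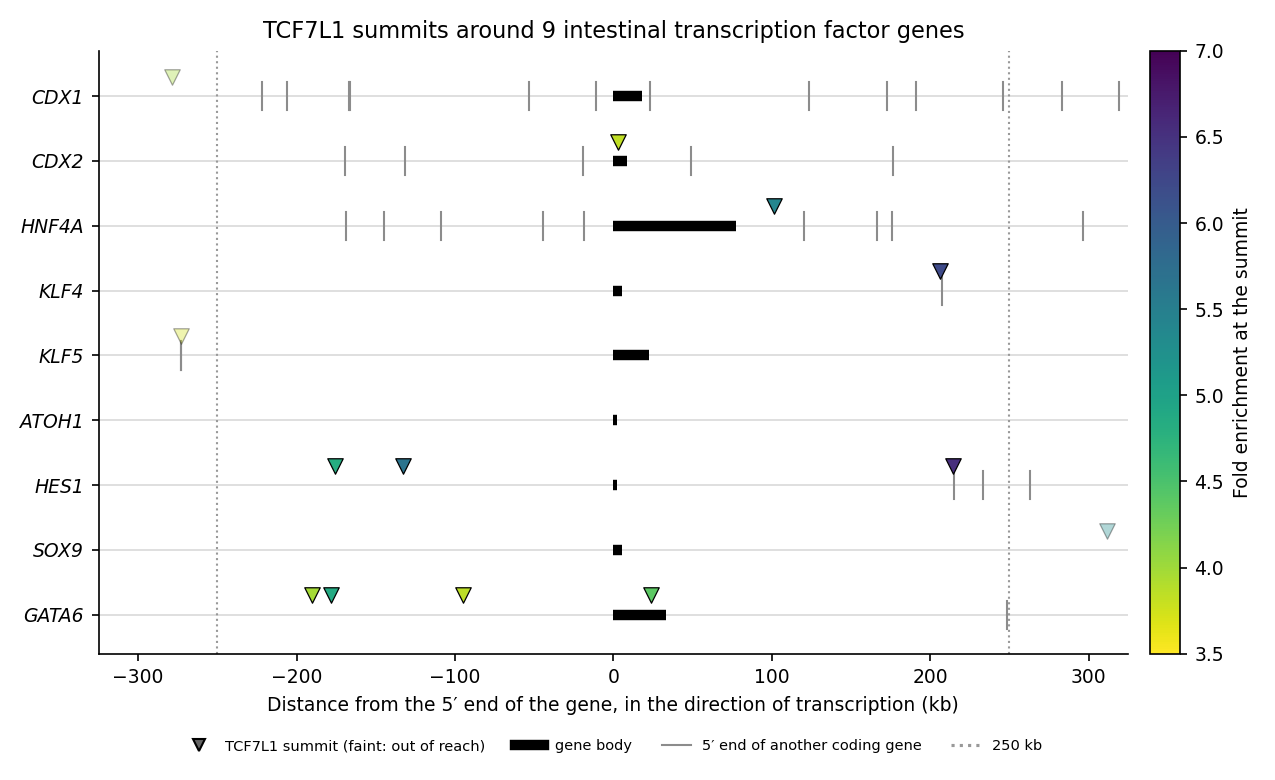
Map of the 9 genes, each drawn along its direction of transcription from its 5′ end at 0 kb. Triangles are TCF7L1 summits coloured by fold enrichment, black bars are gene bodies, grey ticks are 5′ ends of other protein-coding genes, and dotted lines mark 250 kb; faint triangles are summits out of reach. The CDX2 summit, 1186 bp from a TSS, is the only one within 2.5 kb of a start of its own member gene, and no TCF7L1-MUT summit falls in the span drawn.

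A summit within 250 kb of one gene can lie closer to another, so the nearest protein-coding TSS was found for each summit. It was that of the member for 5 of the 10 summits, at CDX2 (1 summit), HES1 (2) and GATA6 (2). These 3 of 9 genes (33.3%) compare with 11.3% of protein-coding genes that had a summit in reach with their own TSS as the nearest. The other 5 summits were nearer to TTPAL, RAD23B, CPN2 and, for 2 of them, MIB1. Neighbouring protein-coding genes that started within the same 250 kb numbered from 0 at SOX9 to 11 at CDX1, so the windows differ in how crowded they are.

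The strength of a site is given by the fold enrichment at its summit, which is the number of stacked reads plus 1 divided by the local background plus 1, as the authors' peak caller wrote it. The 10 summits ranged from 3.84 to 6.54, with a median of 4.85, and the median over all 3663 TCF7L1 regions was 5.02. Of the 10 values, 4 were above that median and 6 below it. That ratio and its p-value together fix the number of reads and the background, which are on the scale of this library. Reads at the 10 summits ranged from 20 to 35 with a median of 26.5, whereas the median over all regions was 20. The local background ranged from 2.98 to 7.60 with a median of 4.58, against 3.26 over all regions, and it was above 3.26 at 9 of the 10 summits. The member sites therefore mostly had more reads than the median region and also more background beneath them. By fold enrichment they were spread over the list, from a site above 12.3% of regions to one above 84.3%.

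**Figure D2:**
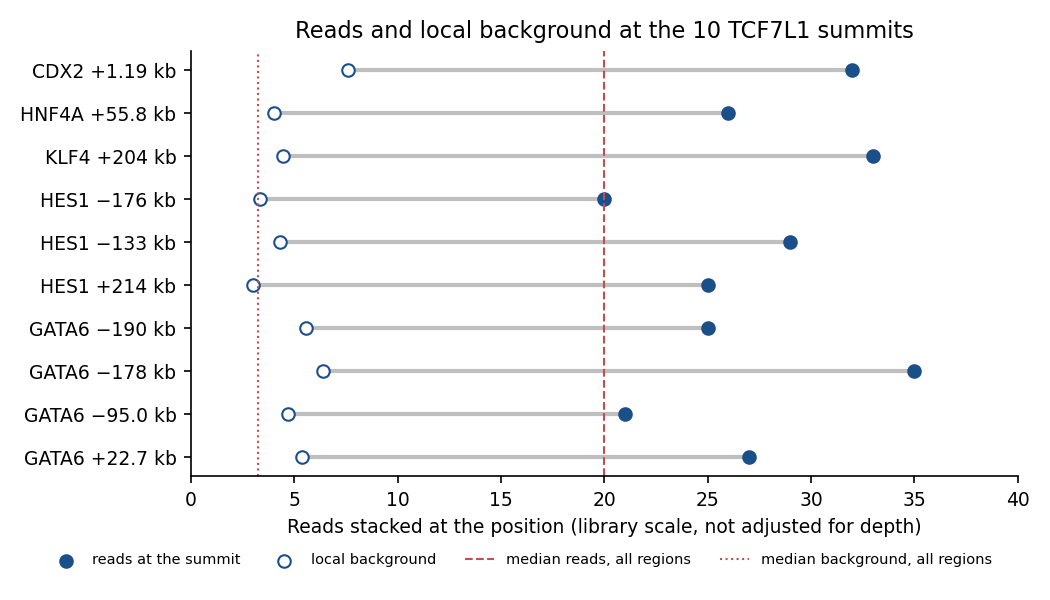
Reads stacked at each of the 10 TCF7L1 summits (filled circles) and the local background at the same position (open circles), by gene and distance from its nearest TSS. Dashed and dotted red lines mark the medians over all TCF7L1 regions, 20 reads and a background of 3.26. The CDX2 site has 32 reads but the highest background of the 10, at 7.60.

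Among the factors of intestinal identity, CDX2 had the site nearest to a start. CDX2 is a homeobox factor that directs intestinal development and is widely used as a marker of intestinal cells. Its region, chr13:27965899-27966350, had 32 reads over a background of 7.60, an enrichment of 3.84-fold and a −log10 q of 6.20, where q is the peak caller's p-value adjusted over the genome. That fold enrichment ranked 3212 of 3663, and 12.3% of TCF7L1 regions were lower. The summit lay 1186 bp downstream of the TSS of a shorter CDX2 transcript and 3176 bp downstream of the 5′ end of the gene, in a CDX2 intron. The promoter call for CDX2 thus rests on the inner TSS and is lost when only the 5′ end of the gene is used. The same summit is 46.1 kb from the TSS of PDX1, a neighbouring homeobox gene of pancreas and duodenum.

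CDX1, the paralog of CDX2 and a Wnt-responsive gene of the crypt, had no summit in reach. Its nearest TCF7L1 summit was 279 kb upstream, 20059 bp from a TSS of PDE6A, with 16 reads over a background of 3.29 and a fold enrichment of 3.97.

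HNF4A, a nuclear receptor that activates enterocyte genes, had 1 summit. The region chr20:44456987-44457348 had 26 reads over a background of 4.0, an enrichment of 5.40-fold and a −log10 q of 8.35, above 61.7% of regions by fold enrichment. It lay 55.8 kb downstream of the nearest HNF4A TSS and 101490 bp from the 5′ end of the gene, beyond the gene's end and in an intron of LINC01620, a long non-coding RNA (lncRNA). The nearest protein-coding TSS was that of TTPAL, 18685 bp away.

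GATA6, a zinc finger factor of endoderm, had the most summits of the 9 genes. Having 4 or more in reach was recorded for 3.15% of protein-coding genes. That bound is the count of GATA6 itself, the highest of the 9, so the share is no test of it. The intronic region, chr18:22193500-22193809, had 27 reads over a background of 5.39, an enrichment of 4.38-fold and a −log10 q of 6.35, with its summit 22713 bp downstream of the nearest GATA6 TSS.

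The other 3 GATA6 summits were upstream, and the nearest of them, at 94989 bp, was the weakest. That region, chr18:22074428-22074784, was intergenic, with 21 reads over a background of 4.71, an enrichment of 3.85-fold and a −log10 q of 3.67. The region chr18:21991092-21991543, 178 kb upstream, had the most reads of the 10 (35 over 6.39), with an enrichment of 4.87-fold and a −log10 q of 10.0. The one at chr18:21979242-21979563, 190 kb upstream, had 25 reads over 5.55, an enrichment of 3.97-fold and a −log10 q of 4.86. The last 2 lay 11.9 kb apart on either side of the start of the lncRNA LINC01900, 1 in its intron and 1 at 1731 bp before its TSS. Their nearest protein-coding TSS belonged to MIB1, 139086 bp and 127165 bp away. All 4 GATA6 summits had fold enrichments below the median of the list and backgrounds above its median.

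On the absorptive side of the fate choice, HES1 had 3 summits, none within 100 kb. HES1 is a Notch-induced repressor of the secretory program. Having 3 or more summits in reach was recorded for 6.72% of protein-coding genes, a bound that is again the gene's own count and so no test. Upstream of the gene no other protein-coding start fell within 250 kb, and the 2 upstream summits, 42.9 kb apart, had HES1 as their nearest protein-coding TSS. The region chr3:194003200-194003717, 133 kb upstream, was the widest of the 10 at 518 bp, with 29 reads over a background of 4.31, an enrichment of 5.65-fold and a −log10 q of 9.94. Its summit was 170 bp downstream of a TSS of LINC02026, so it is a promoter site of a lncRNA.

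The second upstream HES1 region, chr3:193960427-193960799, lay 176 kb away in an intron of the same lncRNA, with 20 reads over 3.35, an enrichment of 4.83-fold and a −log10 q of 5.31. The downstream region, chr3:194350224-194350662, had the highest fold enrichment of the 10, at 6.54, above 84.3% of regions, with 25 reads over 2.98 and a −log10 q-value of 10.2. It lay 214 kb from HES1 but 897 bp downstream of a TSS of CPN2, in an intron of that gene.

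ATOH1, the basic helix-loop-helix factor that HES1 represses and that drives secretory fate, was the farthest of the 9 genes from any TCF7L1 summit. Its nearest one was 688 kb downstream, 7018 bp from a TSS of PDLIM5, with 12 reads over a background of 1.80 and a fold enrichment of 4.65. Within 250 kb of ATOH1 there was 1 other protein-coding gene.

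KLF4, a zinc finger factor of differentiated and goblet cells, had 1 summit in reach, at the promoter of another gene. The region chr9:107283980-107284360 had 33 reads over a background of 4.46, an enrichment of 6.22-fold and a −log10 q of 12.8, the highest of the 10. The summit was 204 kb from the nearest KLF4 TSS and 127 bp downstream of a TSS of RAD23B, a DNA repair gene, in its untranslated sequence. KLF5, which is expressed in dividing crypt cells, had none in reach. Its nearest summit was 273 kb upstream and 23 bp from a TSS of PIBF1, with 17 reads over 3.81 and a fold enrichment of 3.74.

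SOX9, an HMG-box factor of the crypt base, lies in a gene desert, and no other protein-coding gene started within 250 kb of its TSS. Its nearest TCF7L1 summit, chr17:72432163-72432626, was 311 kb downstream, with 33 reads over a background of 5.46, an enrichment of 5.27-fold and a −log10 q of 10.4. The nearest protein-coding TSS to that summit was one of SLC39A11, 293234 bp away. The summit thus lies between that TSS and the SOX9 TSS, about as far from each, and distances to the gene bodies were not compared.

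By the nearest summit of each gene, the last gene inside the distance of 250 kb was KLF4 at 204 kb, and the first ones outside it were KLF5 at 273 kb and CDX1 at 279 kb. The farthest summit counted was the downstream one of HES1 at 214 kb, a gene that also had a summit at 133 kb. The median distance to the nearest TCF7L1 summit was 204 kb for the 9 genes and 343 kb for 20033 protein-coding genes on chromosomes 1 to 22, X and Y. Within 500 kb, 8 of 9 genes had a summit, against 61.6% of protein-coding genes, and within 1000 kb all 9 did, against 81.4%. Within 50 kb it was 2 of 9, against 14.9%.

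**Figure D3:**
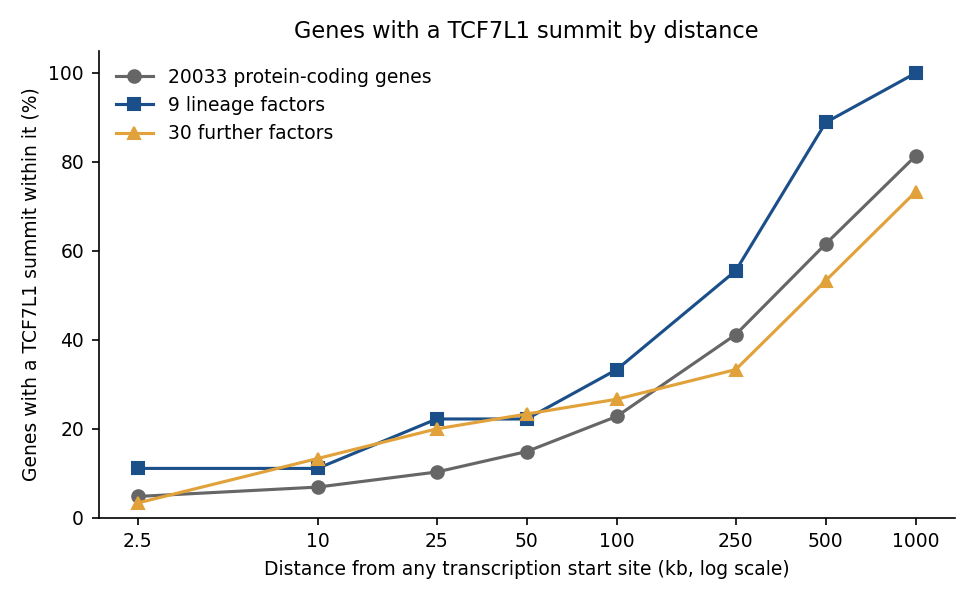
Percent of genes with a TCF7L1 summit within a given distance (log scale) of any of their TSSs, for all protein-coding genes on chromosomes 1 to 22, X and Y, the 9 lineage factors and 30 further factors of intestine and endoderm. The 9 factors rise from 1 gene at 2.5 kb to 5 at 250 kb and 8 at 500 kb; a step for 1 of them is 11.1 percentage points, so the curve moves in coarse steps.

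A gene without a listed summit is not shown to lack the protein, since the lists hold only what passed the peak caller. Among TCF7L1 regions with a local background of 3 to 4 reads, the fewest reads at a listed summit were 13 and the lowest fold enrichment was 3.20. With a background of 4 to 5 they were 15 reads and 3.04, and with 6 to 8 they were 19 reads and 2.75. Binding below about these levels could be absent from the lists. Whether depth or the peak caller's cutoff set the levels was not tested.

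The TCF7L1-MUT library serves as the control for signal that does not need DNA binding. None of the 10 TCF7L1 regions overlapped a TCF7L1-MUT region by 1 bp or more. The TCF7L1-MUT list held 204 regions beside 3663 in the TCF7L1 list, and the study counted most TCF7L1 regions as unique. This 0 is therefore not particular to the 10 sites. A TCF7L1-MUT summit was in reach of 0 of the 9 genes, and this was so for all but 1.69% of protein-coding genes. The nearest TCF7L1-MUT summits were between 11.1 Mb (GATA6) and 101 Mb (HES1) from the TSSs of the 9 genes, with a median of 28.9 Mb, against 20.6 Mb over the 18394 protein-coding genes on chromosomes with such a summit. The list gives no read number at positions that were not called, so the TCF7L1-MUT signal at the 10 sites themselves was not analysed here.

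Each window of 100 bp either side of the summit was then compared with the windows of all 3573 TCF7L1 regions on chromosomes. All 10 member windows were of single-copy sequence, whereas 21.0% of all windows were multi-copy, meaning that at least 50% of their 31-base words occurred more than once in the assembly. Their GC content ranged from 48.3 to 60.2% with a median of 51.0%, and the median of all windows was 51.7%. The TCF pattern was present in 2 of 10 member windows, against 26.8% of all windows. Among the 1836 windows with a summit inside any protein-coding gene it was present in 26.2%.

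The remaining patterns were those of factors that include or accompany the members. The GATA pattern, AGATA or TGATA followed by A or G, was present in 5 of 10 windows, against 31.9% of all windows. The CDX pattern, TTTAT followed by G or T and then A or G, was present in 3, against 19.1%. The forkhead pattern, TATTTAC or TGTTTAC, was present in 3, against 12.7%. The AP-1 pattern, TGACTCA or TGAGTCA, which are the same site read on opposite strands, was present in 1, against 7.39%, and the KLF pattern, GGGTGTGG or GGGCGTGG, in 1, against 3.72%. The HNF4 pattern, CAAAGTCCA, which holds CTTTG on its other strand, was in none of the 10 and in 0.140% of all windows. With 10 windows, 1 window is 10.0 percentage points, so these counts are a description of the windows and not a difference from the list.

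**Figure D4:**
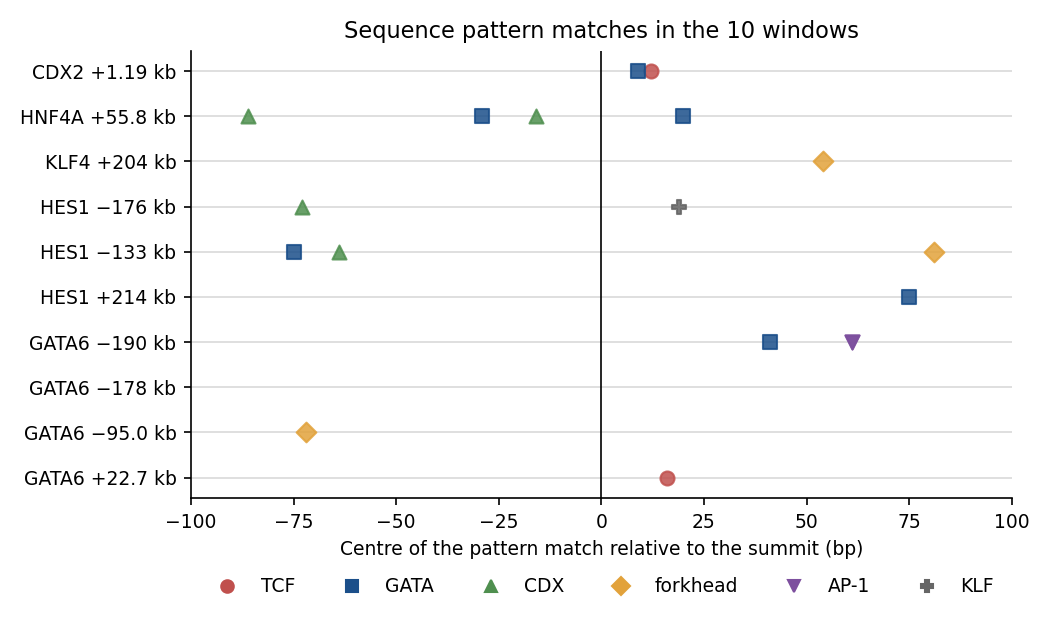
Position of pattern matches relative to the summit (0 bp) in the 10 windows, named by gene and distance from its nearest TSS; colours and shapes mark the pattern. TCF matches stand only in the CDX2 and GATA6 intron windows, 12 and 16 bp from the summit, and the GATA6 window at −178 kb has no match.

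Further windows are printed because they hold the highest fold enrichments among the member sites outside untranslated sequence. That 2 of them carry the CDX and GATA patterns together was a further reason. The share of all windows with both patterns was not counted, so the pair is no result about these sites. They are chr3:194350321-194350521 (downstream of HES1, in CPN2), chr3:194003366-194003566 (upstream of HES1, at LINC02026) and chr20:44457089-44457289 (downstream of HNF4A), on the plus strand of GRCh38/hg38, with pattern matches in capitals.

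HES1 downstream: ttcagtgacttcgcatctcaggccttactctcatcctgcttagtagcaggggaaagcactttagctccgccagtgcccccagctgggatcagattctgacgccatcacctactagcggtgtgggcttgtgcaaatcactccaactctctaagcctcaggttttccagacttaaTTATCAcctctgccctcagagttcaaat

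HES1 upstream: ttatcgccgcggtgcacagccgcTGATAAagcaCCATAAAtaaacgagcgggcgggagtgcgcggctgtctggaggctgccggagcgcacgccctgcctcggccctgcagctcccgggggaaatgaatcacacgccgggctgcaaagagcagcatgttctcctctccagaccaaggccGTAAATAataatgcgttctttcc

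HNF4A downstream: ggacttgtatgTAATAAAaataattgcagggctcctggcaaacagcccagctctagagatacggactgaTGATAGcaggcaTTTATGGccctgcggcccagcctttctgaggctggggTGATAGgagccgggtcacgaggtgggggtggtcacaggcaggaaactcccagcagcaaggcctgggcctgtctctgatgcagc

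The HNF4A window held 2 GATA matches, both reading TGATAG, 29 and 20 bp from the summit on either side. Its CDX matches were TTTATGG at 16 bp and a TTTATTA on the minus strand at 86 bp. The HES1 upstream window had the highest GC content of the 10 (60.2%). Its summit had a TGATAA match at 75 bp and a TTTATGG match at 64 bp on one side, and a TATTTAC match at 81 bp on the other. The HES1 downstream window held only TGATAA, 75 bp from the summit. Of the others, the GATA6 window at 190 kb upstream held a match to TGAGTCA at 61 bp and one to TGATAA at 41 bp from the summit, and the window at 178 kb held no match to any of the 7 patterns. In all, 9 of 10 member windows held at least 1 match, against 67.4% of all windows.

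A second list of 30 transcription factor genes of intestine and endoderm was examined under the same rules. A TCF7L1 summit was in reach of 10 of the 30 (33.3%), beside 41.3% of protein-coding genes, and a TCF7L1-MUT summit of 0. The median was 0 summits per gene and the median distance to the nearest TCF7L1 summit was 448 kb. Genes with their own TSS as the nearest protein-coding one numbered 7 of 30 (23.3%), beside 11.3%.

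Among these genes, ID2, an inhibitor of basic helix-loop-helix factors, was the only one with a promoter summit, 1 of 30 (3.33%), beside 4.86%. Its region, chr2:8677752-8678792, had 2 summits, 863 bp and 250 bp upstream of a TSS. The first had 61 reads over a background of 15.1 and a fold enrichment of 3.86, and the second had 41 reads over 16.2 and a fold enrichment of 2.44. Both numbers of reads were above those of all 10 member sites, and so were both backgrounds.

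ISL1, a LIM-homeobox factor of endocrine cells, and GFI1, a repressor active in secretory cells, had 3 summits each. Those of ISL1 were 9381 bp upstream and 12005 bp and 133 kb downstream, with fold enrichments of 5.61, 7.01 and 5.63, and ISL1 was the nearest protein-coding gene to each. Those of GFI1 were 182 kb downstream and 225 and 237 kb upstream and lay nearer to GLMN and EVI5. Of those with 1 summit each, SOX4 had it 3071 bp downstream of its TSS with a fold enrichment of 3.43, POU2F3 at 18.9 kb with 4.77, ELF3 at 21.3 kb with 4.58, HNF4G at 83.2 kb with 7.12 and FOXA2 at 154 kb with 4.89, and for PDX1 it was the CDX2 summit. The nearest protein-coding TSS to the POU2F3 summit was that of ARHGEF12, 396 bp away.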

How the data were processed

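ChIP-seq peak lists of 2 HCT116 samples were used, 1 per group, grouped by the genotype in their labels. Per the labels and the study's methods, the authors aligned reads to GRCh38/hg38 using BWA 0.7.12, and MACS2 2.1.0 was run per sample to call peaks. Whether an input library was used, the cutoff on q-values and how duplicate reads were handled are not given in the sources used here. The deposited lists hold a fold enrichment (a ratio with a pseudocount of 1), the −log10 of the p-value and q-value, and a score that repeats the q-value and was not analysed. The deposited summit files repeat the lists. Library depth was not analysed here.

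Positions are 1-based in GRCh38/hg38. Genes, transcripts and TSSs were those of GENCODE release 44, and all transcripts counted. Regions overlapped when they shared at least 1 bp. A Poisson model gave the reads and background from the fold enrichment and p-value, to within 0.001 in −log10 p. This succeeded for all 3663 TCF7L1 regions, and these steps were tested on simulated data. The simulated backgrounds did not reach the highest ones reported here, such as 7.60 at CDX2. Pattern windows took the strongest summit of each region. Copies of 31-base words were counted over 194 sequences without alternates. Python 3.11.15, numpy 2.4.6 and scipy 1.17.1 were used.

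The members and lists were chosen with earlier results of these data known. All 9 members were named with every summit in reach, and of the 30 further factors those with a promoter summit and those with most summits, where ties at 1 summit were named apart from 1 result that is not reported here. Windows printed were those at summits within 10 kb of a member's TSS and with the highest fold enrichment, and the GATA6 intron window was added after its values were seen. The window at RAD23B is untranslated sequence and is not printed. Alternatives were other distances, the 5′ end of each gene, a fold enrichment of at least 5, q-values up to 0.001, 1 summit per region, other overlap rules and other windows.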

Additional observations from a re-analysis of the deposited data

How the results depend on the processing

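The 10 results were recomputed 57 times with other choices, and 37 values stayed within 1.5 times the reported count or within the 95% interval of the reported value, while 20 moved further. The intervals were 40.6 to 42.0% for the share of genes and 3.85 to 6.22 for the median fold enrichment. They take genes or summits of 1 library as independent, though neighbouring genes share summits. They therefore only sort the values and measure no spread between samples. A reach of 100 kb left 3 members and 4 summits, beside 23.1% of protein-coding genes, and a reach of 500 kb gave 8 members and 19 summits, beside 61.6%, and 16 of the 30 further factors. A fold enrichment of at least 5 left 3 members (HNF4A, KLF4 and HES1) with 4 summits, beside 22.3% of protein-coding genes, 0 members at a promoter, 0 windows with the TCF pattern, 3 further factors in reach and 0 at a promoter. With the 5′ end of the gene only, 0 members had a promoter summit and 39.7% of protein-coding genes had one in reach. A q-value of at most 0.001 gave 36.7%. A promoter distance of 1 kb gave 0 members, and one of 5 kb gave 2 further factors. Windows of 250 bp either side gave 4 member windows with the TCF pattern. The count of 0 for TCF7L1-MUT summits in reach and for shared regions was the same under every alternative run. No alternative could change it, since the nearest TCF7L1-MUT summit was 11.1 Mb from a member TSS and the filters only remove summits. These zeros are among the 37 values that stayed, so they say nothing about stability. Stricter filters keep fewer regions, and the cause of the changes in the other values was not tested. No paired analysis was possible because the groups hold 1 sample each, which also left none to omit. The number of reads at a summit, 20 to 35 here, limits the precision of each fold enrichment.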
